A study of Homo sapiens with 30 samples.

Results

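The regions described here are 719 stretches of open chromatin that LNCaP prostate cancer cells showed without androgen and that none of the peak lists made after 10 nM of androgen contained. Starting from the 120017 distinct peak spans of vehicle replicate 3 on chromosomes 1 to 22 and X, the 100000 with the highest −log10 p were taken, and 63122 of these overlapped a span among the top 100000 of both other vehicle lists. Of those 63122 reproduced regions, 719 (1.14%) overlapped no entry of any 10 nM list, 2924 (4.63%) overlapped entries in 1 or 2 of the 3 lists, and 59479 (94.2%) overlapped entries in all 3. The 3 sets are called the lost, the partly kept and the kept regions. The lost regions were chosen by −log10 p and presence in the LNCaP vehicle and 10 nM lists, so those values are no result. Absence from a list means that no peak passed the calling threshold, not that the chromatin was shown to be closed.

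The study applied ATAC-seq, in which a transposase inserts sequencing adapters into accessible DNA, to LNCaP and VCaP cells. LNCaP is a human line from a prostate cancer lymph node metastasis, and VCaP is a human line from a vertebral metastasis of prostate cancer that carries extra copies of the androgen receptor gene and the TMPRSS2-ERG fusion. For 48 hours both lines grew in 8% charcoal-stripped serum, from which steroid hormones have been removed, and they were then given the synthetic androgen R1881 or vehicle for 24 hours. LNCaP cells had vehicle or R1881 at 0.03, 0.06, 0.1 or 10 nM, and VCaP cells had vehicle or R1881 at 0.01, 0.03, 0.06 or 10 nM, with 3 libraries per group and 30 in all. Each line is a single cell line, and the labels do not say whether the libraries of a group came from separate cultures, so p-values measure the spread between these libraries only.

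The androgen receptor is a nuclear receptor that enters the nucleus when it binds androgen, sits on DNA at enhancers together with pioneer factors such as FOXA1 and HOXB13, and recruits coactivators. In prostate cells androgen is best known for activating genes of secretion and metabolism, such as KLK3 and TMPRSS2, but it also lowers a second group of genes, among them the receptor's own gene. Open chromatin marks enhancers and promoters that factors can reach, and its loss with hormone has been studied as a counterpart of that second group.

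Only 6 of the 719 lost regions touched a 300-base promoter window, which runs from 250 bases before to 50 bases after an annotated start in RefSeq on GRCh38.p14. The windows of the 3 starts discussed further on are printed here because they have the most bases inside a lost region. Each is 5′ to 3′ on the strand of its gene, and capitals mark exact matches to the motifs searched. WFDC10B (minus strand, chr20:45704970-45705269, 193 bases inside a lost region) encodes a WAP-domain protein, ZCCHC12 (plus strand, chrX:118823574-118823873, 207 bases inside) encodes a CCHC-type zinc finger protein, and PNKY (minus strand, chr6:98831651-98831950, 248 bases inside) is a long non-coding RNA beside POU3F2.
WFDC10B: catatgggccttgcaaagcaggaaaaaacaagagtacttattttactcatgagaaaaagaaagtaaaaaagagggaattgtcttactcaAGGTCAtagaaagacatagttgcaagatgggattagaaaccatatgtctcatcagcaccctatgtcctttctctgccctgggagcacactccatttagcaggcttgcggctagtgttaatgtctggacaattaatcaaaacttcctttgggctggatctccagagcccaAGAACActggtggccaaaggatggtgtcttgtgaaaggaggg
ZCCHC12: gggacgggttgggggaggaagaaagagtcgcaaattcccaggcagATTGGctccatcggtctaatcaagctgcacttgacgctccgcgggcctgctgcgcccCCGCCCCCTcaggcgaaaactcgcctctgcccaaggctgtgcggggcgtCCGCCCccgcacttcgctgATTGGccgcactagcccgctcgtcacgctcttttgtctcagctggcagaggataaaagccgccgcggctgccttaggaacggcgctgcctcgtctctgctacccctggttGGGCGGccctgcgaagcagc
PNKY: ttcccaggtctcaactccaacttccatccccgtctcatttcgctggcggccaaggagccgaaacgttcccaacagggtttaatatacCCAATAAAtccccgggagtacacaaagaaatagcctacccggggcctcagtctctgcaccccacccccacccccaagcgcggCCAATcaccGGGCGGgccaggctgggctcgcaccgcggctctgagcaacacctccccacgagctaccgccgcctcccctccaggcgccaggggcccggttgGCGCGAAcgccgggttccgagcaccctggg

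Motifs were searched as exact letters on both strands. The WFDC10B window held AGAACA, the hexamer of the androgen response element, and AGGTCA, a nuclear receptor hexamer. These 2 motifs occurred in 14.8% and 13.8% of all 34961 promoter windows. ZCCHC12 held the SP motif GGGCGG at 3 places, the first overlapping a CTCF motif (AGGGGGC), and the NFY motif CCAAT at 2 places. PNKY held CCAAT at 2 places, the first overlapping a HOXB13 motif (CAATAAA), together with GGGCGG and the E2F motif TTCGCGC. Of all windows, 45.0% held GGGCGG, 34.6% CCAAT, 14.4% AGGGGGC, 4.004% CAATAAA and 2.25% TTCGCGC. The WFDC10B window was 43.3% G or C with 1 CpG, whereas the ZCCHC12 window was 65.7% G or C with 27 CpG. The palindromic androgen response element (AGAACA, 3 bases of any kind, then TGTTCT) was in none of the 6 windows and in 1 of the 34961. Sequences of the other lost regions, which lie outside these windows or on chromosome 8, are not analysed here.

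The 30 peak lists held 135254 to 223998 entries each in LNCaP and 105034 to 170787 in VCaP. Read counts were not among the values used, so no depth per library or counting interval can be given. Pileups solved from each peak's fold enrichment and p-value gave a local background at each peak. The 1st percentile of this background over a library's peaks was between 3.06 and 5.26 reads in the LNCaP libraries. In VCaP it was 2.07 to 2.49 in the 10 nM libraries, against 1.14, 1.09 and 2.11 in vehicle replicates 1, 2 and 4. A shallower library gives smaller −log10 p values at the same openness, so the comparisons use ranks within each list. Entries lay within 1 kb of an end of all 10 luminal epithelial marker genes in every LNCaP library and of 9 or 10 in every VCaP library. The same was so of 5 to 7 of 9 basal, 5 to 7 of 9 stromal, 3 to 6 of 8 immune, 1 to 4 of 6 endothelial and 10 to 13 of 14 neuroendocrine marker genes in LNCaP. In VCaP those numbers were 3 to 6, 4 to 6, 2 to 5, 2 to 5 and 11 to 14. ATAC-seq on bulk cells cannot tell fewer cells with an open site apart from less opening per cell.

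The lost regions were mostly weak peaks with vehicle. Their −log10 p in vehicle replicates 3, 4 and 5 had medians of 11.6, 14.2 and 4.89 and reached 85.0, 123 and 34.4. The lowest values were 3.69, 4.10 and 3.19, where the last spans inside the top 100000 stood at 3.65, 4.10 and 3.18. When all reproduced regions were split by the replicate 3 value into 4 strength classes of equal size, from weakest to strongest, 466, 189, 59 and 5 regions were lost, which is 2.953%, 1.198%, 0.374% and 0.032% of each class. Just outside the rule at the other end were 758 regions that overlapped an entry in a single 10 nM list, with median −log10 p there of 3.76, 4.06 and 3.85 in replicates 3, 4 and 5. Without both the vehicle and the 10 nM list of replicate 4 or 5, the rule gave 1432 and 4099 regions, so of these replicates replicate 5 narrowed the set more. Vehicle replicate 3 anchored the rule and was kept. Only the 10 nM list of replicate 3 was left out, which gave 853 regions and is not the same kind of omission.

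The low-dose LNCaP libraries listed many of the lost regions, and fewest on average at 0.1 nM. A listed peak overlapped 75.7%, 73.6% and 61.9% of the 719 regions in the 3 libraries at 0.03 nM. The shares were 57.6%, 65.9% and 82.5% at 0.06 nM, and 44.6%, 47.6% and 68.0% at 0.1 nM. The means were 70.4 ± 7.42%, 68.7 ± 12.7% and 53.4 ± 12.7% (SD, n = 3 each), so neighbouring doses overlapped in the lists as deposited. The replicate 5 libraries at 0.06 and 0.1 nM stood above the other libraries of their dose. Their lists were also the longest of their dose, with 174081 and 172546 spans. Replicates 3 and 4 had 119872 and 136250 at 0.06 nM and 125305 and 144053 at 0.1 nM. With all lists shortened to the shortest LNCaP list, the shares ran from 54.1% to 73.6%, 55.2% to 62.3% and 32.0% to 43.3%. Then 0.1 nM lay below both other doses. Kept regions were listed at 97.6 ± 0.864%, 98.9 ± 0.931% and 99.0 ± 0.835% at the same doses in the lists as deposited. Because the vehicle lists chose the regions, a share below 100% at 0.03 nM is not read as a response.

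Weak peaks are missed more often, so the comparison was repeated among the 466 lost and 13427 kept regions in the weakest of the 4 strength classes. This split was chosen after the data were seen, and the median −log10 p within it was 8.69 for lost and 10.8 for kept regions. The lost regions there were listed at 61.2 ± 7.68%, 58.9 ± 16.8% and 42.6 ± 14.4% at 0.03, 0.06 and 0.1 nM, against 92.7 ± 2.69%, 96.6 ± 2.93% and 96.7 ± 2.71% of the kept ones (SD, n = 3 each). The 1888 partly kept regions of that class were listed at 76.5 ± 2.50%, 80.5 ± 14.4% and 75.2 ± 16.6%. No library at any low dose listed a larger share of the lost than of the kept regions of that class. Kept regions were defined by a listed peak in every LNCaP list at the highest dose, and lost regions by none. The higher listing of the kept regions may thus be partly set by that choice, and the class medians still differed. Whether peak strength accounts for the gap was not tested. When the lost regions themselves were split into 4 groups by mean vehicle rank, the highest group was listed at 90.7%, 91.5% and 78.9% at the 3 doses and the lowest at 49.6%, 47.4% and 35.4%.

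**Figure D1:**
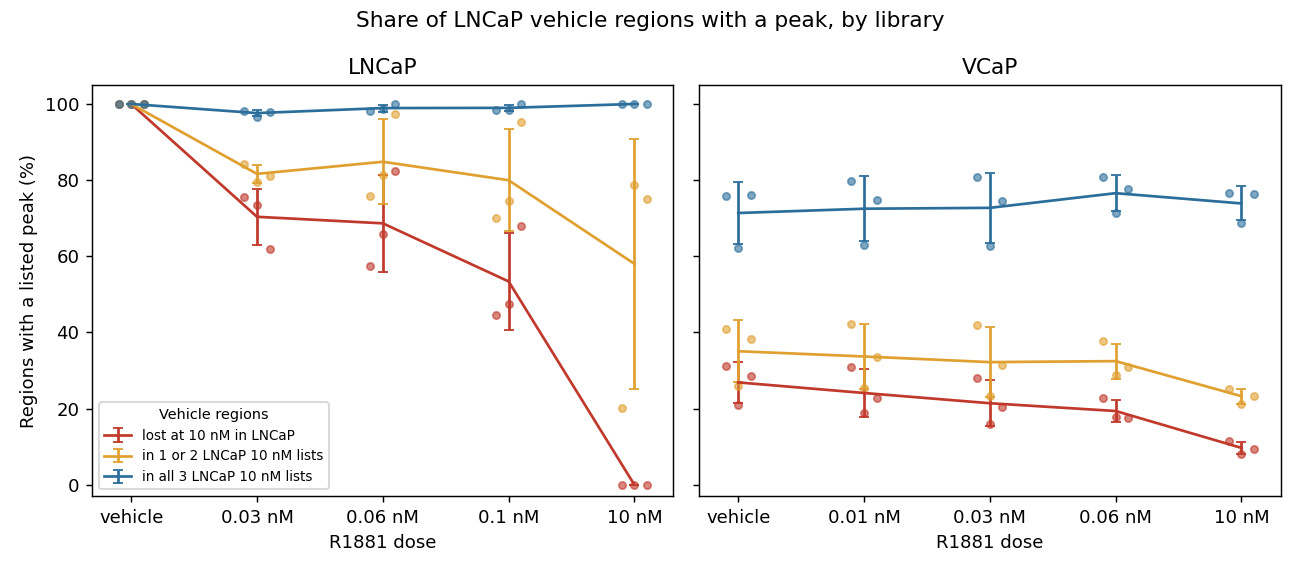
Share of the lost (719), partly kept (2924) and kept (59479) regions overlapped by a listed peak, in percent, against the R1881 dose in LNCaP (left) and VCaP (right); points are libraries and bars are mean ± SD of 3. In LNCaP the vehicle and 10 nM values of the lost regions are fixed at 100% and 0% by the rule, and the mean at 0.1 nM is 53.4%. In VCaP the lost regions average 9.69% at 10 nM and 26.9% with vehicle, while the kept regions stay between 71.4% and 76.6%.

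The regions went through the doses in several ways. By presence in at least 2 of 3 libraries, 309 regions (43.0%) were listed at all 3 low doses, 126 (17.5%) at 0.03 and 0.06 nM but not at 0.1 nM, 70 (9.74%) at 0.03 nM alone and 103 (14.3%) at none. The remaining regions followed orders that are not monotonic in dose. All 9 low-dose libraries listed 137 regions (19.1%), against 54543 kept regions (91.7%), and no low-dose library listed 8 regions. Among the 137 regions, those at a gene whose lowest rank over the 9 libraries was highest lay at NAALADL2, a relative of the folate hydrolase genes, ACTR6, a subunit of a chromatin remodelling complex, ZMAT3, a p53-regulated RNA-binding protein, TANK, an adaptor of NF-κB signalling, and MAPKAPK2, a kinase downstream of p38. Regions in none of the 9 were near ZNF648, FOLH1, MRPS23, MTARC1 and ST6GALNAC2, among others.

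**Figure D2:**
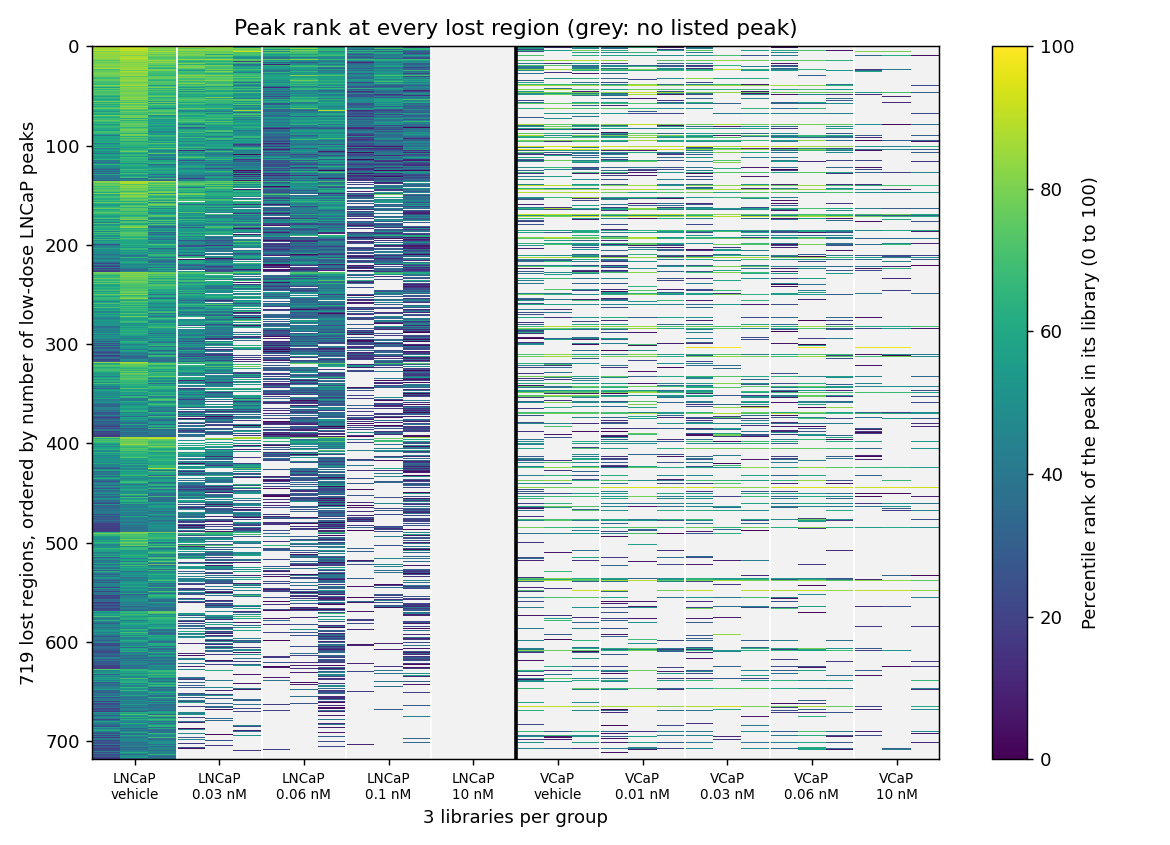
Percentile rank of each of the 719 lost regions (rows, ordered by the number of low-dose LNCaP libraries that list them) in each of the 30 libraries (columns, by line and dose); colour gives the rank from 0 to 100 in the list as deposited and grey means not listed. The LNCaP 10 nM columns are grey throughout by the rule, 137 rows are coloured in all 9 low-dose columns, and 334 rows are grey in all 15 VCaP columns.

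The test of the dose series left out the vehicle and 10 nM libraries, which had chosen the regions, and compared ranks at 0.1 nM with those at 0.03 nM. Ranks run from 0, not in a list shortened to the length of the shortest LNCaP list, to 100, the highest −log10 p. Averaged over the 719 regions, the rank was 29.96, 33.7 and 20.7 in the 3 libraries at 0.03 nM, 18.0, 20.5 and 12.7 at 0.06 nM, and 10.5, 10.8 and 5.97 at 0.1 nM. The 0.1 nM libraries lay below all 3 at 0.03 nM. The mean rank was lower at 0.1 than at 0.03 nM for 628 of the 719 regions, higher for 46 and 0 at both for 45. Over all 720589 spans in the table, 18.4% were lower, 14.5% higher and 67.0% were 0 at both.

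With limma and Benjamini-Hochberg adjustment over the 143498 spans that passed the filter, 23 of the 559 lost regions that passed it fell at 0.1 nM, where 0.183% of the spans tested fell, and 0 rose, where 1.32% of the spans tested rose. Before adjustment, 234 of the 559 had p under 0.05 in the lower direction, where 5.49% of the spans tested did, and 2 in the higher one, where 9.53% did. The 23 differences ran from −60.3 to −20.9 rank points with a median of −48.3, with adjusted p of 0.0114 to 0.0467. Same-numbered LNCaP libraries deviated together, and with the replicate number as a block 68 lost regions fell. The count was 0 without replicate 3, 0 without replicate 4, 17 without replicate 5, 2 when the 0.1 and 0.03 nM libraries were fitted alone, and 3 with only entries of −log10 q of at least 5. Between 0.06 and 0.03 nM, limma called 0 lost regions lower, where 0.00209% of the spans tested were called, and 0 higher, where 0.181% were called, with 90 and 4 of the 559 at unadjusted p under 0.05, where 2.54% and 5.89% of the spans tested were.

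Of the 23 regions that fell, 14 lay within 100 kb of a gene. The largest difference at a gene was in PLCB4, a phospholipase C that acts below G protein-coupled receptors (chr20:9307400-9308452, inside the gene). Its −log10 p was 45.6, 59.2 and 22.1 with vehicle, 30.7, 29.7 and 58.6 at 0.03 nM, 13.4, 32.2 and 10.3 at 0.06 nM, and 11.5, 5.22 and 6.09 at 0.1 nM in replicates 3, 4 and 5. Every 0.1 nM value lay below every value at 0.03 nM. The rank was 19.4 ± 19.6 at 0.1 nM and 79.4 ± 11.4 at 0.03 nM (SD, n = 3 each), a difference of −60.0 (SE 12.6, adjusted p = 0.0387 by limma).

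MBNL2, a muscleblind regulator of splicing, held a lost region at chr13:97244741-97245407 inside the gene. Its −log10 p was 20.1, 22.4 and 5.47 with vehicle, 11.04, 22.04 and 7.57 at 0.03 nM, 9.53, 18.5 and 16.2 at 0.06 nM, and 4.62, not listed and 4.65 at 0.1 nM. The 0.1 nM libraries were the lowest of the series, without overlap. The rank fell to 4.84 ± 8.38 at 0.1 nM, against 55.2 ± 11.4 at 0.03 nM (adjusted p = 0.0428 by limma).

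AFDN, a scaffold protein of adherens junctions, held a region inside the gene (chr6:167909559-167910478) that was listed in every LNCaP library up to 0.06 nM and in none at 0.1 nM. Its −log10 p was 13.8, 19.8 and 3.97 with vehicle, 13.4, 10.97 and 6.503 at 0.03 nM, and 4.63, 7.58 and 7.81 at 0.06 nM. The mean rank was 0 at 0.1 nM and 49.7 ± 3.05 at 0.03 nM (adjusted p = 0.0395 by limma). A region inside MME, which encodes the membrane peptidase neprilysin, had a mean rank of 2.97 ± 5.14 at 0.1 nM and 58.0 ± 3.61 at 0.03 nM. For FGF12, an intracellular member of the fibroblast growth factor family, the values were 2.18 ± 3.77 and 54.3 ± 6.99. The other genes with a region that fell were CNGB3, a subunit of the cone photoreceptor channel, HAS2, a hyaluronan synthase, MMP24, a membrane-anchored metalloproteinase, ARG1, the arginase of the urea cycle, UBE3C, a ubiquitin ligase, and CFAP221, KIAA1217, PSD3 and CNBD1. The regions at ARG1, UBE3C and PSD3 had rank 0 at both 0.06 and 0.1 nM and passed the filter through the 0.03 nM libraries alone, so these 3 had to differ and their calls are not read as support. The nearest gene is a position and not a measured target.

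**Figure D3:**
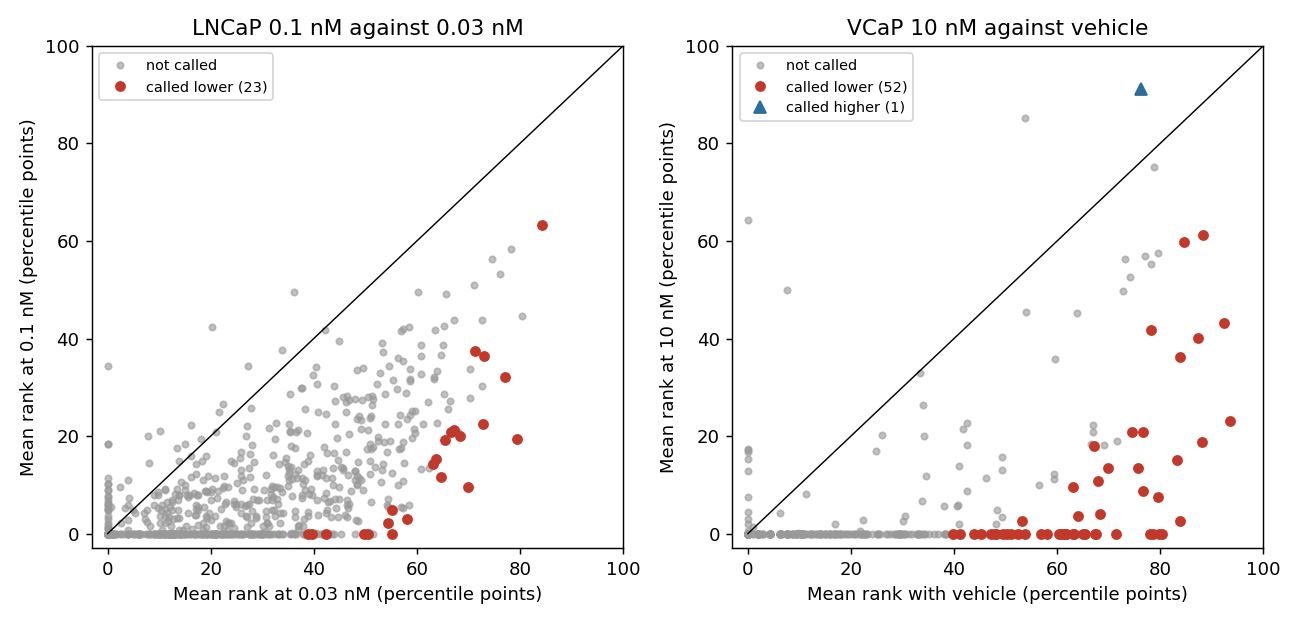
Mean percentile rank of all 719 lost regions, whether or not they passed the filter, each point 1 region and each mean over 3 libraries. The left panel sets LNCaP 0.1 nM (vertical) against 0.03 nM (horizontal). The right panel sets VCaP 10 nM (vertical) against vehicle (horizontal). Red points are the 23 and 52 regions called lower and the blue point is the 1 called higher, in FRYL. On the left 628 points lie below the diagonal of equal rank. On the right 279 do, and 425 regions have rank 0 in both groups.

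Several strong lost regions were not called. VAV3 held the lost region with the highest mean vehicle rank among those assigned to a gene (chr1:107639154-107639861, inside the gene), and 5 regions without a gene ranked higher. Its −log10 p was 85.0, 109 and 11.6 with vehicle, 48.8, 51.3 and 21.7 at 0.03 nM, 47.7, 47.1 and 27.8 at 0.06 nM, and 29.5, 20.6 and 9.70 at 0.1 nM. In replicates 3 and 4 the value was lower at each dose, and in replicate 5 it was highest at 0.06 nM. At NAALADL2 (chr3:174538716-174539969, inside the gene) the −log10 p was 48.6, 66.7 and 10.8 with vehicle, 48.8, 59.1 and 14.9 at 0.03 nM, 42.4, 53.1 and 23.6 at 0.06 nM, and 29.7, 22.9 and 29.7 at 0.1 nM. All 9 low-dose libraries listed it.

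A region inside GABRG3, a subunit of the GABA type A receptor (chr15:27059692-27059913), did not follow the dose. Its −log10 p was 39.0, 65.1 and 23.05 with vehicle, not listed, not listed and 29.8 at 0.03 nM, 36.9, 35.9 and 59.4 at 0.06 nM, and not listed, not listed and 70.6 at 0.1 nM. FOLH1, which encodes the prostate-specific membrane antigen and is known to be lowered by androgen, held a weak region inside the gene (chr11:49163181-49163491) with −log10 p of 4.69, 4.66 and 6.33 with vehicle. It was listed in no other library of either line.

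In VCaP, which played no part in choosing the regions, fewer of them were open to begin with, and those that were open were often missing at 10 nM. A listed peak overlapped 11.4%, 8.21% and 9.46% of the 719 regions in the 3 VCaP libraries at 10 nM, against 31.3%, 20.9% and 28.5% with vehicle. The groups did not overlap, and their means were 9.69 ± 1.61% and 26.9 ± 5.40% (SD, n = 3 each). At 0.01, 0.03 and 0.06 nM the means were 24.1 ± 6.18%, 21.4 ± 6.06% and 19.4 ± 2.97%, each within the spread of its neighbours. Kept regions were listed at 73.9 ± 4.46% with 10 nM and 71.4 ± 8.03% with vehicle, and partly kept ones at 23.3 ± 1.95% and 35.1 ± 8.10%.

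No VCaP library listed 334 of the lost regions (46.5%), against 7.64% of the kept ones. At least 2 of the 3 VCaP vehicle libraries listed 187 lost regions, and of these 98 (52.4%) were in no VCaP 10 nM list and 50 (26.7%) in 2 or more. Of the 43445 kept regions open in VCaP by the same measure, 3.06% were in no 10 nM list and 92.7% in 2 or more. In the weakest of the 4 LNCaP strength classes, lost regions were listed at 10.9 ± 1.61% with 10 nM and 24.7 ± 5.40% with vehicle in VCaP, and kept regions at 56.1 ± 5.87% and 50.3 ± 10.5%. Among regions whose mean rank in the VCaP vehicle libraries was between 28.8 and 65.5, 49 of 93 lost regions (52.7%) and 625 of 13769 kept regions (4.54%) were in no VCaP 10 nM list. Of the partly kept regions in that range, 162 of 527 (30.7%) were in none. The reverse, absence with vehicle and listing in 2 or more 10 nM libraries, held for 6 lost regions (0.834%) and 1511 kept regions (2.54%).

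With limma over the 139567 VCaP spans that passed the filter, 52 of the 212 lost regions that passed it fell at 10 nM, where 2.69% of the spans tested fell, and 1 rose, where 6.8% of the spans tested rose. Before adjustment 106 of the 212 had p under 0.05 in the lower direction, where 8.53% of the spans tested did, and 3 in the higher one, where 13.3% did. The 52 differences ran from −81.1 to −24.9 rank points (median −57.6, adjusted p of 3.161e-06 to 0.0493), 30 of the 52 had rank 0 at 10 nM, and 41 lay within 100 kb of a gene. The count was 8 without replicate 1, 63 without replicate 2, 11 without replicate 4, 11 without the 2 shallow vehicle libraries, replicates 1 and 2, and 2 with only entries of −log10 q of at least 5. At 0.06 nM 4 lost regions fell, where 0.139% of the spans tested fell, and 1 rose, where 1.21% rose; the 4 were at AFDN, SLC1A1, MBNL2 and a site without a gene, and 0, 3 and 0 fell without replicate 1, 2 or 4.

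PRKG1, the cGMP-dependent protein kinase, had the largest difference (chr10:51488458-51488938, inside the gene). In VCaP its −log10 p was 29.6, 8.67 and 29.4 with vehicle, 29.9, 10.0 and 25.6 at 0.01 nM, 45.1, 9.32 and 17.4 at 0.03 nM, 53.2, 11.03 and 11.8 at 0.06 nM, and not listed, not listed and 3.65 at 10 nM in replicates 1, 2 and 4. The peak was present in all 12 libraries below 10 nM and close to the calling limit or gone at 10 nM. The rank fell to 2.64 ± 4.58 at 10 nM, against 83.8 ± 2.92 with vehicle (SD, n = 3 each), a difference of −81.1 (SE 8.23, adjusted p = 1.103e-05 by limma). In LNCaP the same region had 47.7, 65.6 and 4.33 with vehicle, 28.7, 30.4 and 4.05 at 0.03 nM, 17.3, 26.2 and 11.5 at 0.06 nM and 11.5, 5.18 and 6.39 at 0.1 nM.

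PPARGC1A, a coactivator of genes for mitochondrial biogenesis, held a lost region 75.7 kb from the nearest protein-coding start (chr4:23956591-23957069, inside the gene). It was not listed in any VCaP library at 10 nM, against −log10 p of 21.0, 14.02 and 13.6 with vehicle. In LNCaP the values were 23.7, 41.2 and 8.69 with vehicle, 10.3, 26.7 and 11.4 at 0.03 nM, 9.73, 23.8 and 13.2 at 0.06 nM and 6.69, 10.8 and 9.05 at 0.1 nM. The VCaP rank was 0 at 10 nM and 78.7 ± 11.8 with vehicle (adjusted p = 0.000403 by limma).

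KCNJ15, an inwardly rectifying potassium channel, lay 93.4 kb from a lost region (chr21:38136364-38136644) that was listed in both lines. It was in no VCaP 10 nM list, against −log10 p of 14.8, 9.49 and 36.0 with vehicle. In LNCaP it had 33.5, 53.2 and 17.3 with vehicle, 19.8, 23.8 and 12.7 at 0.03 nM, 16.6, 11.2 and 9.15 at 0.06 nM, and 20.4, 19.3 and 19.3 at 0.1 nM. The VCaP rank was 0 at 10 nM and 80.4 ± 7.96 with vehicle (adjusted p = 0.00225 by limma).

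Other VCaP falls were at GPC3, a cell-surface proteoglycan (rank 0 at 10 nM and 79.7 ± 8.22 with vehicle), at CORIN, a protease that activates atrial natriuretic peptide (0 and 78.1 ± 6.68), and at FOS, a subunit of the AP-1 transcription factor 37.6 kb away (0 and 60.3 ± 11.5). VAV3 also fell, with rank 0 at 10 nM and 63.2 ± 12.2 with vehicle. Some regions fell but stayed listed. FAIM2, an inhibitor of Fas-driven cell death, had 43.3 ± 16.5 at 10 nM and 92.4 ± 0.699 with vehicle, and MBNL2 had 61.3 ± 8.61 and 88.3 ± 2.79. The smallest adjusted p, 3.161e-06 by limma, belonged to a region with no gene within 100 kb, chr5:68459346-68460028. Its −log10 p was 49.0, 19.9 and 54.6 with vehicle, 22.2, 10.8 and 11.1 at 0.06 nM, and 5.64, 3.81 and 4.57 at 10 nM. No value at 10 nM reached any vehicle value.

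**Figure D4:**
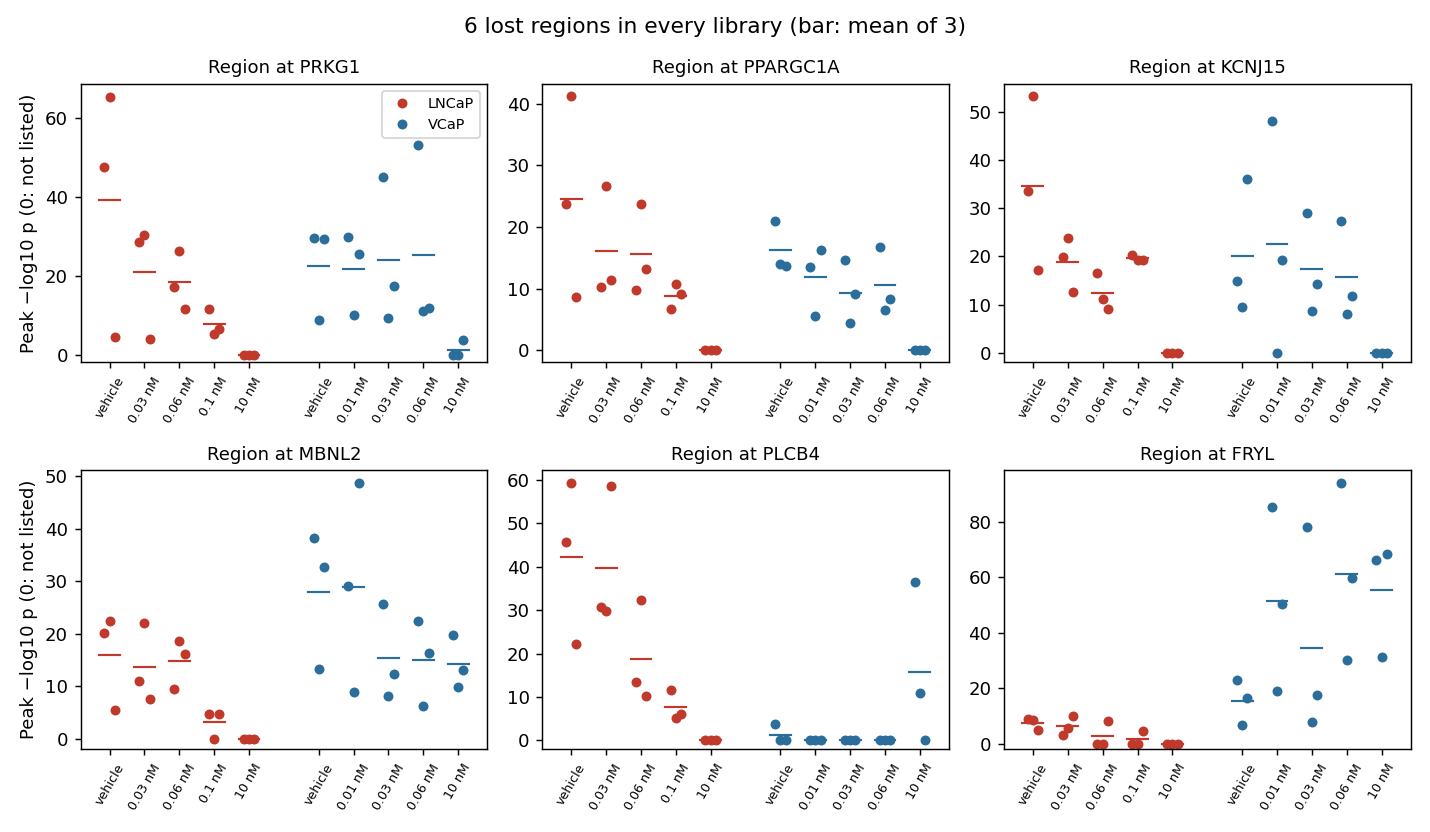
−log10 p of the peak in every library at the lost regions of PRKG1, PPARGC1A, KCNJ15, MBNL2, PLCB4 and FRYL, by dose in LNCaP and VCaP, with 0 for not listed and each point 1 of 3 libraries per group. In VCaP at 10 nM PRKG1, PPARGC1A and KCNJ15 are at or near 0, MBNL2 is partly retained, and PLCB4 and FRYL have peaks. In LNCaP every region shown is fixed at 0 at 10 nM by the rule.

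Of the 186 lost regions that passed the filter in both fits, 5 fell in LNCaP at 0.1 against 0.03 nM and in VCaP at 10 nM against vehicle, at AFDN, CFAP221, CNGB3, MBNL2 and UBE3C, the last of which passed the LNCaP filter through the 0.03 nM libraries alone. Only 9 of the 23 LNCaP falls and 49 of the 52 VCaP falls could be tested in the other line. Of all spans tested, 0.183% were called lower in the LNCaP comparison and 2.69% in the VCaP one. The share of all spans called lower in both was not computed, so the 5 are not read as an excess.

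FRYL, a homologue of the Drosophila furry gene, held the region that rose in VCaP (chr4:48604599-48605054, inside the gene). In VCaP its −log10 p was 22.98, 6.79 and 16.5 with vehicle, 85.4, 19.1 and 50.3 at 0.01 nM, 78.0, 7.92 and 17.5 at 0.03 nM, 93.9, 29.997 and 59.9 at 0.06 nM, and 66.2, 31.4 and 68.2 at 10 nM. Each replicate was higher at 10 nM than with vehicle. The rank was 91.2 ± 1.75 at 10 nM and 76.2 ± 5.37 with vehicle (difference 14.95, SE 3.53, adjusted p = 0.00908 by limma), and 91.5 ± 0.691 at 0.06 nM (adjusted p = 0.0328). In LNCaP the region was weak, with 8.90, 8.60 and 4.78 with vehicle, 3.14, 5.51 and 10.0 at 0.03 nM, and a listed peak in replicate 5 alone at 0.06 and 0.1 nM (8.06 and 4.58). A second lost region of FRYL, chr4:48616503-48617055, was in no VCaP list. PLCB4 had a VCaP peak of 36.4 and 10.9 in replicates 1 and 2 at 10 nM, not listed in replicate 4, against 3.74 in vehicle replicate 1 and no peak in the other two, and this was not called (adjusted p = 0.0917 by limma).

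The lost regions lay far from gene starts. The median distance from the summit to the nearest start of a protein-coding gene was 85.9 kb for the 676 lost regions with a distance, against 33.7 kb for the kept ones, and 3 lost regions (0.444%) lay within 1 kb of a start against 17.9% of the kept. Distances on chromosome 8 are not analysed here. Gene bodies held 45.2% of the lost and 51.6% of the kept regions, and 27.3% of the lost regions had no gene within 100 kb, against 11.2% of the kept. They were also narrower, with a median width of 458 bp against 679 bp. In the weakest strength class the distances were 73.9 kb for lost and 50.1 kb for kept regions, and 0.679% and 4.44% lay within 1 kb of a start, so the gap was smaller there. These are descriptions with no test.

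**Figure D5:**
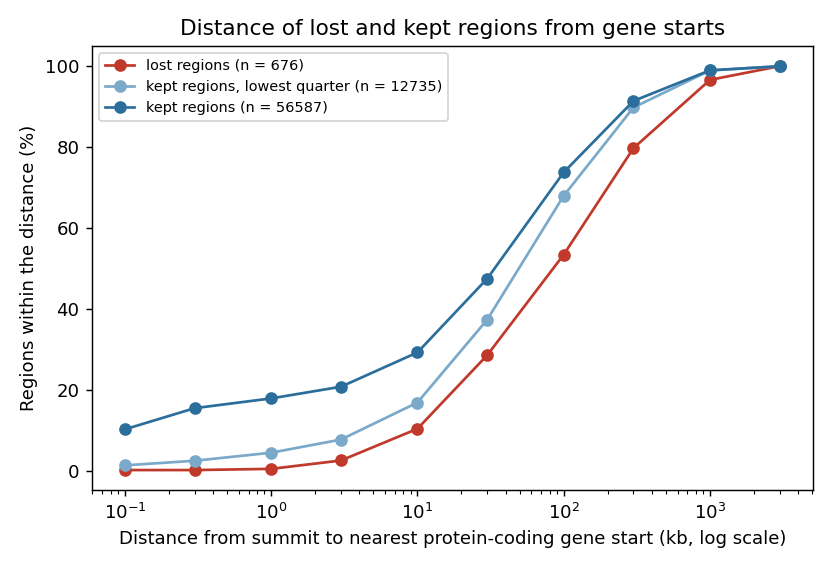
Cumulative share of regions, in percent, by distance from the summit to the nearest protein-coding start in kb (log axis), for the lost regions (n = 676), the kept regions in the weakest of the 4 strength classes, drawn as the lowest in −log10 p (n = 12735) and all kept regions (n = 56587). The lost curve lies below both others at short distances, with 0.444% of lost and 17.9% of kept regions within 1 kb.

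Lost regions stood among kept ones. A kept region lay within 10 kb of 44.8% of them and within 50 kb of 83.9%. A span gained at 10 nM lay within 10 kb of 10.3% of the lost and 9.14% of the kept regions, within 50 kb of 36.3% and 37.5%, and within 100 kb of 57.6% and 59.4%. By chromosome, the lost share of reproduced regions ran from 0.247% on chromosome 19 (5 of 2027) to 1.65% on chromosome 5 (63 of 3813). The 719 regions were assigned to 490 genes, of which 459 had 1 region, and 196 regions had no gene. METTL9, a histidine methyltransferase (3 of its 11 reproduced regions), and PSD3, an exchange factor for ARF6 (3 of 26), had the most. EDNRA, the endothelin A receptor, lost 2 of 4 and HOOK3, a dynein adaptor, 2 of 4. Elsewhere single regions were lost among many: 1 of 15 at VAV3, 1 of 13 at PRKG1 and 1 of 18 at PPARGC1A.

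The printed promoter windows belong to 3 regions with unlike values. At ZCCHC12 (chrX:118823667-118823926) the VCaP peak had −log10 p of 18.4, 4.93 and 9.86 at 10 nM, against 16.1, 6.62 and 15.8 with vehicle, and the groups overlapped. The LNCaP values there were 5.37, 10.1 and 4.89 with vehicle. At WFDC10B the region (chr20:45705077-45705558) had 10.8, 6.53 and 4.33 with vehicle in LNCaP, 2.56 in 1 library at 0.03 nM and no peak in any other library. The region at PNKY and POU3F2 (chr6:98831683-98831930) had 9.09, 7.90 and 3.44 with vehicle and 5.44, 8.29 and 3.88 at 0.03 nM, was listed in replicate 5 alone at 0.06 and 0.1 nM, and was in no VCaP list.

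Gene lists were read by how many of their reproduced regions were lost, beside 1.14% over all 63122. Genes that androgen is known to lower had 4 of 101 (3.96%), at CCN3, CDH2, FOLH1 and PRUNE2. Genes that it is known to raise had 6 of 292 (2.05%), at PLPP1 (2 regions), CENPN, NDRG1, RAB4A and AFF3. Steroid and nuclear receptors had 5 of 230 (2.17%), at RORA (2 regions), NR1H4, RORB and THRB. Glutamate and GABA receptors had 6 of 194 (3.09%), Wnt signalling 5 of 199 (2.51%), axon guidance and neural adhesion 10 of 598 (1.67%), cAMP and cGMP signalling 2 of 270 (0.741%) and luminal transcription factors 1 of 173 (0.578%, at NFIA). Neuroendocrine markers had 1 of 35, at POU3F2, and basal markers 1 of 20, at ITGA6. Cell cycle genes had 0 of 118 and cell cycle inhibitors 0 of 78. The luminal, stromal, immune, endothelial and housekeeping lists, with 40, 24, 16, 26 and 53 reproduced regions, had none. With counts this small the order of the lists is not established.

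Among these lists, VCaP falls at 10 nM were found for CCN3 (1 of 3 androgen-lowered regions that passed the filter), NR1H4 and RORB (2 of 3 nuclear receptor regions) and PRKG1 (1 of 1 in cyclic nucleotide signalling). Of all lost regions that passed the VCaP filter, 52 of 212 (24.5%) fell, and of all spans tested 2.69% did. With 1 to 3 regions tested in each of these lists, the counts cannot be told apart from that share. CCN3, a secreted matricellular protein 54.2 kb from its region (chr8:119361928-119362611), had −log10 p of 2.95 in replicate 1 and no peak in replicates 2 and 4 at 10 nM, against 8.43, 6.62 and 14.2 with vehicle. Its LNCaP values were 34.1, 38.9 and 5.47 with vehicle, 12.7, 18.2 and 5.71 at 0.03 nM, 8.76, 14.96 and 8.68 at 0.06 nM, and 5.97, 3.03 and 11.2 at 0.1 nM. NR1H4, the bile acid receptor, had no VCaP peak at 10 nM and 7.67, 6.12 and 6.60 with vehicle. CDH2, the neuronal cadherin, kept its VCaP peak, with 20.5, 6.51 and 11.7 at 10 nM against 19.3, 5.65 and 16.9 with vehicle, and the groups overlapped. The THRB region, in the thyroid hormone receptor beta gene, had no VCaP peak at 10 nM and 5.39, not listed and 4.14 with vehicle. Lists of the other kinds had no lost region called in any of the 4 comparisons.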

How the data were processed

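The deposited files are 1 narrowPeak list per library on GRCh38, from 30 Omni-ATAC-seq libraries made with a Nextera kit per the labels. Tools named in the submitters' processing notes are MACS2 2.2.7.1, BWA 0.7.17, deepTools 3.5.1 and Trimmomatic 0.39. In each list the authors give per peak a score (10 times the −log10 p, cut to a whole number), a fold enrichment, a −log10 p, a −log10 q and the summit's offset. All are the authors' values. Read counts and depths were not used here, so no counting interval is given, and precision is the spread of 3 libraries.

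Overlap meant at least 1 shared base. Lists of a line were shortened to the shortest (119872 spans in LNCaP, 93180 in VCaP), −log10 p was turned into percentile ranks (0 if absent), and limma 3.58.1 in R 4.3.3 (trend, robust, two-sided, Benjamini-Hochberg adjusted p under 0.05) was fitted to spans present in at least 3 libraries. The LNCaP fit held the 9 low-dose libraries, and the VCaP fit held all 15. The fit was tested on simulated data in which 200 spans, drawn from those of small spread, were shifted by 60 rank points. It recovered 98.5% of them for LNCaP at 0.1 against 0.03 nM and 65.5% for VCaP at 10 nM against vehicle. Deviations of same-numbered LNCaP libraries at 0.1 and 0.03 nM correlated at 0.13, 0.128 and 0.299. At 0.06 and 0.03 nM they correlated at 0.111, 0.13 and 0.304. Pairing by number entered only the fit with the replicate block, which was run as an alternative. The main counts and the adjusted p-values of single regions come from fits of group means without that block. A gene was assigned when it lay within 100 kb. The regions, the 17 gene lists and the rule for named genes (strongest with vehicle, most regions per gene, largest called changes, listed in all or no low-dose libraries, up to 3 per list, promoter windows, earlier named genes) were chosen with earlier results of these data known. FOS, FAIM2, AFDN and others beyond that rule were named after their values were seen. Alternatives tried are given in the closing section.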

Additional observations from a re-analysis of the deposited data

Results flagged for a closer look

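The lost region in FRYL rose in VCaP at 10 nM, by 14.95 rank points against vehicle, with all 3 VCaP libraries at 10 nM above all 3 with vehicle. In LNCaP its absence at 10 nM is fixed by the choice of regions, so no direction is read there, and a difference between the lines was not tested.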

How the results depend on the processing

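Results rest on 3 libraries a group, ranks of called peaks and no read counts, and a region under the calling limit cannot be measured. The number of lost regions itself was 719, and 91 with the top 50000 spans. It was 484 when the top 100000 was counted in entries and not in distinct spans, a reading the rule's wording also allows (added after seeing the data). Those 484 were listed at 77.9%, 76.0% and 59.8% at 0.03, 0.06 and 0.1 nM. When vehicle replicate 5 was not asked for, the number was 3249 (added after seeing the data). Without the 10 nM list of replicate 3 it was 853, and without both lists of replicate 4 or 5 it was 1432 and 4099. For LNCaP at 0.1 against 0.03 nM, 23 regions fell, 3 with all entries, 12 with at least 50% cover, 3 with −log10 q of at least 5, 68 with the replicate block, 2 with only the compared groups, and 0 to 17 leaving out a replicate. For VCaP at 10 nM against vehicle 52 fell, 2 with −log10 q of at least 5, 64 with the replicate block, 8 to 63 leaving out a replicate, and 11 without vehicle replicates 1 and 2 (added after seeing the data; the lone vehicle library is assumed to vary like the others). For VCaP at 0.06 nM 4 fell, 2 with all entries, 0 with −log10 q of at least 5, 9 with the replicate block, 1 with only the compared groups, 0 to 3 leaving out a replicate and 1 without the 2 vehicle libraries. By the same check, same-numbered VCaP libraries at 10 nM and vehicle also deviated together, at 0.0678, 0.134 and 0.118 for replicates 1, 2 and 4. Different-numbered ones lay between −0.115 and 0.0245. The LNCaP count of 23 and the VCaP counts of 52 and 4 come from the fits without the replicate block. For LNCaP 0.06 against 0.03 nM the count was 0 under every alternative run.

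The mean listed shares moved as follows. With the top 50000 spans they were 91.9% at 0.03 nM, 94.1% at 0.06 nM, 83.2% at 0.1 nM, 30.8% for VCaP 0.01 nM and 34.4% for VCaP vehicle. With lists shortened they were 66.8% at 0.03 nM, 58.4% at 0.06 nM, 38.3% at 0.1 nM, 7.05% for VCaP 10 nM and 15.3% for VCaP 0.06 nM. With at least 50% of the region covered they were 61.5% at 0.03 nM, 15.2% for VCaP 0.03 nM, 14.6% for VCaP 0.06 nM and 7.0% for VCaP 10 nM. Of 916 values of the 81 called changes under alternatives, 508 stayed past the threshold, 408 no longer passed it and 0 reversed. The region without a gene on chromosome 5 that fell in VCaP at 10 nM passed in every alternative run. The cause was not tested for any of these changes.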
